A study of Mus musculus with 10 samples.

Results

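The transcripts described here are those of Ccnd1 and Ccnd2, the genes of cyclins D1 and D2, and they are 2 of the 22180 genes that could be named on the arrays. Both were taken by exact gene symbol. The platform annotation listed 1 probe set for each (17498502 for Ccnd1 and 17471222 for Ccnd2) and no further one. They were chosen because earlier results on these arrays placed Ccnd1 above and Ccnd2 below its IgG level in the 4E-T precipitate. Their levels and their differences between groups are therefore given as a description, with no test, and the tests between groups below are of other genes. The RNA came from mouse cortices (strain CD1), taken between embryonic days 12 and 13. The labels give 3 arrays of RNA purified with 4E-T (4ET-IP 1, 2 and 3), 3 arrays of RNA purified with control IgG (IgG-IP 2, 3 and 4) and 4 arrays of total input RNA (input 1 to 4). The labels name no mutation or treatment in any group, and they do not say how many embryos or litters went into 1 array. The study's title places 4E-T in a complex with eIF4E1 that represses translation in neural precursors, and the comparison of precipitates asks which RNAs were found with it.

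D-type cyclins bind the kinases Cdk4 and Cdk6 early in the cell cycle, and the resulting complexes phosphorylate the retinoblastoma protein, which releases E2F factors and lets a cell enter DNA synthesis. In the embryonic cortex both cyclins are made by the dividing precursors. Ccnd1 is a known target of Wnt and mitogen signalling, and Ccnd2 mRNA is known to travel to the basal endfeet of radial precursors, where it is translated locally. The protein 4E-T (gene Eif4enif1) is a partner of eIF4E, which holds the mRNA cap; it keeps bound mRNAs from being translated and is a component of cytoplasmic granules called P-bodies.

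All values are log2 probe set values made by RMA, which scales arrays that are normalized together to a common distribution. A precipitate's value is thus a level relative to the other RNAs in it and not an amount recovered. In such bulk samples, fewer cells of a type and less RNA per cell cannot be told apart. The arrays input 1 and 4ET-IP 1 lay on a lower scale: their medians over all probe sets were 3.54 and 3.52, against 4.33 to 4.54 on the other 8 arrays. They are called the lower pair below. The sources used here do not say whether this pair was normalized apart from the other 8 arrays. Differences come from a fit of all 10 arrays with terms for group and for the lower pair (the pair term), and the error is the standard error (SE) of that fit. No IgG array belongs to the lower pair. Within that pair there is 1 difference of 4E-T and input, with no replicate. Of 10 cortical identity genes 9 were measured, and their mean rank within an array lay between 87.5% and 93.5% of all genes, as a check of the labelled tissue.

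Ccnd1 was highest in the 4E-T precipitate. Its values were 9.61, 10.06 and 10.19 on 4ET-IP 1, 2 and 3. On input 1, 2, 3 and 4 they were 8.97, 9.27, 9.38 and 8.21. On IgG-IP 2, 3 and 4 they were 8.87, 9.05 and 7.61. Each of the 3 arrays of 4E-T thus lay above each input and each IgG array, although 4ET-IP 1 sits on the lower scale, while the input and IgG values overlapped. The group means were 9.95 ± 0.31 (SD, n = 3) with 4E-T, 8.96 ± 0.53 (SD, n = 4) in input and 8.51 ± 0.78 (SD, n = 3) with IgG. The spread in input and IgG came from the arrays numbered 4, which held the lowest Ccnd1 value of each of these groups.

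In the fit with the pair term, Ccnd1 was 1.52 ± 0.39 higher on the log2 scale with 4E-T than with IgG, which is 2.87-fold. It was 1.02 ± 0.35 higher with 4E-T than in input (2.02-fold). The difference of IgG and input was -0.51 ± 0.36. With the replicate number of the labels as a block it was -0.46 ± 0.13, and IgG lay below the input of the same number each time (-0.40, -0.33 and -0.60 for numbers 2, 3 and 4). For 4E-T over IgG the block gave 1.18 ± 0.14, and arrays of equal number differed by 1.19 and 1.15 (numbers 2 and 3). Outside the lower pair the difference of means was 1.62 for 4E-T over IgG and 1.18 for 4E-T over input. Within the lower pair, 4ET-IP 1 exceeded input 1 by 0.64. Without IgG-IP 4 the difference of 4E-T and IgG was 1.07, and that of IgG and input was -0.06. Without input 4 the latter was -0.84, so without the block the size of this difference rested on these arrays.

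Ccnd2 followed another order, with the IgG precipitate at the top. Its values were 11.82, 11.93 and 11.49 on IgG-IP 2, 3 and 4. On 4ET-IP 1, 2 and 3 they were 10.87, 11.07 and 11.23. On input 1, 2, 3 and 4 they were 10.79, 11.18, 11.17 and 10.89. All 3 IgG arrays lay above all 7 other arrays, and the ranges of 4E-T and input overlapped. The means were 11.75 ± 0.23 (SD, n = 3) with IgG, 11.06 ± 0.18 (SD, n = 3) with 4E-T and 11.01 ± 0.20 (SD, n = 4) in input.

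**Figure D1:**
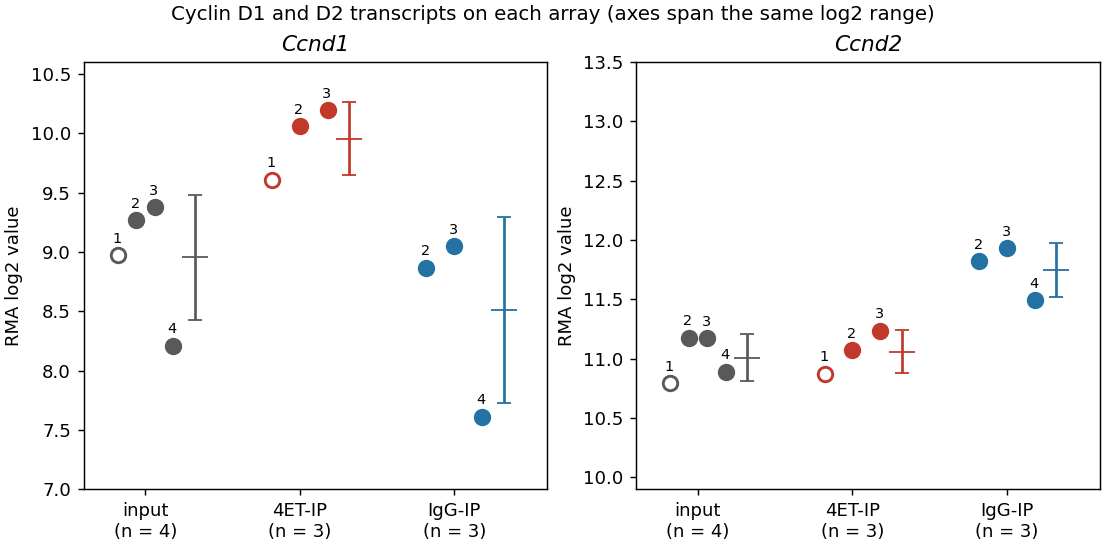
RMA log2 values of Ccnd1 (left) and Ccnd2 (right) on each array, grouped as input, 4ET-IP and IgG-IP, with the replicate number beside each point and the mean ± SD at the right of each group. Open points are the lower pair (input 1 and 4ET-IP 1). For Ccnd1 the 4E-T points, from 9.61 to 10.19, lie above all others, and for Ccnd2 the IgG points, from 11.49 to 11.93, do.

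With the pair term, Ccnd2 was 0.59 ± 0.16 lower with 4E-T than with IgG, on the log2 scale (a difference of -0.59, or 1.51-fold). IgG exceeded input by 0.67 ± 0.15 (1.59-fold). The difference of 4E-T and input was 0.07 ± 0.15, smaller than its error. Outside the lower pair the same differences were -0.60, 0.67 and 0.07, and within the pair 4ET-IP 1 exceeded input 1 by 0.08. When each of the 10 arrays was left out in turn, the difference of 4E-T and IgG stayed between -0.72 and -0.50.

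The opposite signs for the 2 cyclins in 4E-T over IgG came with different positions against input. For Ccnd1, all 4E-T arrays stood above all inputs, while the IgG arrays overlapped the inputs as groups but lay below them number by number. For Ccnd2, all IgG arrays stood above all inputs, while 4E-T overlapped them, at -0.00 ± 0.12 with the replicate block. All 3 comparisons share arrays, so these statements are not independent of each other.

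The log2 value of Ccnd1 minus that of Ccnd2 within an array removes any shift that acts on both probe sets alike. Its size on a single array has no meaning, since probe sets differ in brightness, but its change between arrays does. It was -1.27, -1.01 and -1.04 on 4ET-IP 1, 2 and 3. It was -1.82, -1.91, -1.80 and -2.68 on input 1, 2, 3 and 4. On IgG-IP 2, 3 and 4 it was -2.95, -2.88 and -3.88. The 3 groups did not overlap: every 4E-T array lay above every input, and every input lay above every IgG array. The separation of 4E-T from IgG follows from the values for which the 2 genes were chosen. How often other pairs of genes separate in this way was not computed. The change from IgG to 4E-T was 2.12 ± 0.38 (SE), and it was 0.94 ± 0.34 from input to 4E-T and -1.17 ± 0.35 from input to IgG.

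**Figure D2:**
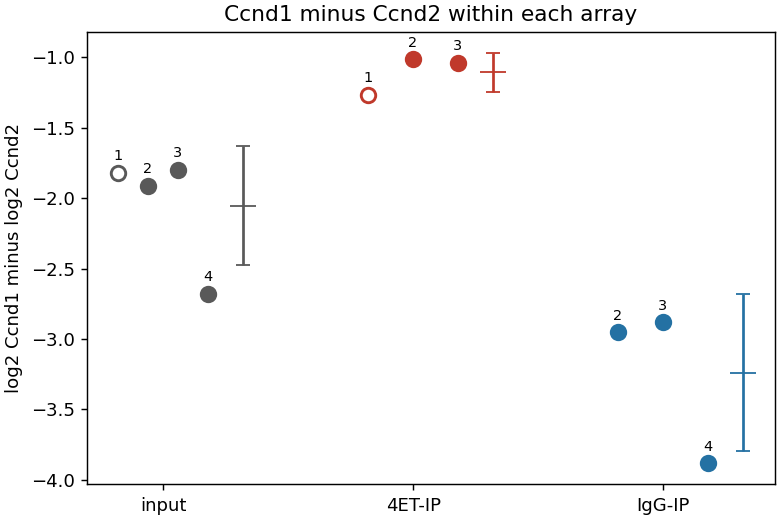
Log2 value of Ccnd1 minus log2 value of Ccnd2 on each array, by group, with replicate numbers and the mean ± SD at the right of each group. Open points are the lower pair. The 4E-T arrays lie between -1.27 and -1.01, the inputs between -2.68 and -1.80 and the IgG arrays between -3.88 and -2.88.

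Both genes were bright in every group. Ccnd2 ranked above at least 99.2% of genes on each array. Ccnd1 ranked above 98.1% to 98.6% of genes on the 4E-T arrays, 89.1% to 96.1% on the inputs and 85.2% to 95.2% on the IgG arrays. As differences, in 4E-T over IgG Ccnd1 was number 76 of 22180 genes from the top and Ccnd2 number 845 from the bottom. These places are of the fit with the pair term. The Ccnd1 difference was smaller without IgG-IP 4 (1.07) and with the replicate block (1.18), where its place was not computed. In 4E-T over input, 2.13% of genes had a higher difference than Ccnd1 and 44.3% a higher one than Ccnd2. In IgG over input, 3.44% had a higher difference than Ccnd2 and 11.4% a lower one than Ccnd1. The medians of all genes were 0.03 against IgG and 0.04 against input for 4E-T, and 0.03 for IgG over input. Groups without overlap were common: over all arrays, 7.02% of genes were higher and 14.5% lower on every 4E-T array than on every IgG array. For 4E-T over input 6.45% were higher without overlap, and for IgG over input 14.1%; on the lower side the shares were 8.44% and 8.23%. These shares are the background of the separations described for the 2 cyclins, which were chosen for them.

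**Figure D3:**
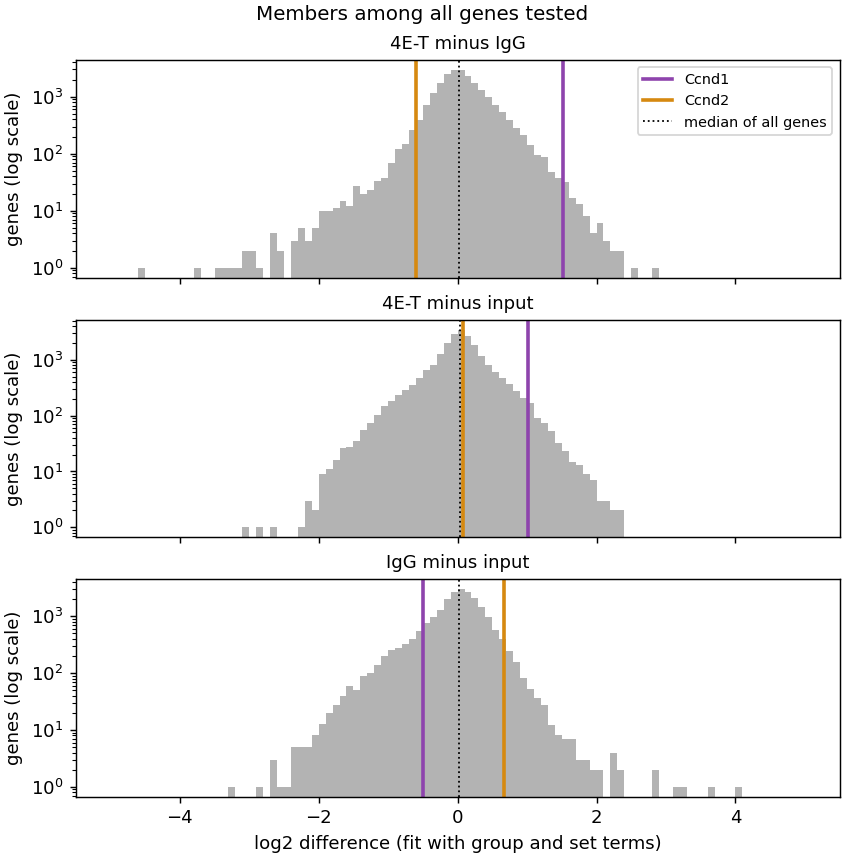
Number of genes (log scale) by log2 difference from the fit with group and pair terms, for 4E-T minus IgG, 4E-T minus input and IgG minus input. The solid lines mark Ccnd1 (1.52, 1.02 and -0.51) and Ccnd2 (-0.59, 0.07 and 0.67), and the dotted line marks the median of all genes.

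The other genes of the pathway were tested with limma in the same fit, with Benjamini-Hochberg adjusted p-values over all genes and a threshold of 0.05. Of all genes, 10.5% passed in 4E-T over IgG (7.57% higher and 2.92% lower), 19.3% in 4E-T over input (10.4% and 8.86%) and 16.6% in IgG over input (6.14% and 10.5%). The higher genes made up 72.1%, 54.0% and 36.9% of the calls. In a fit with group alone the higher shares were 52.5%, 41.7% and 26.7%, of 299, 1361 and 1206 calls. Of the 73 pathway genes measured, in 6 lists, 18 passed in 4E-T over IgG (16 higher and 2 lower), 31 in 4E-T over input (26 and 5) and 14 in IgG over input (8 and 6). The medians of these 73 genes were 0.21, 0.22 and 0.01. These calls depended on the pair term: in limma with group alone 0 of the 18 passed in 4E-T over IgG (11 had an unadjusted p under 0.05), 8 of the 31 in 4E-T over input and 4 of the 14 in IgG over input. Among the 8 arrays outside the lower pair 14 of the 18, 26 of the 31 and 12 of the 14 passed. Without 4ET-IP 2 only 7 of the 18 passed in 4E-T over IgG, and without 4ET-IP 3 only 6. Calls were more common among bright genes. Of the 2326, 4274 and 3688 genes called in the 3 comparisons, 2074, 3997 and 3343 had a mean above the median gene. So had 17 of the 18, 30 of the 31 and 14 of the 14 pathway calls. The shares over all genes are therefore a low background for bright genes, and an excess of pathway calls was not tested.

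The direct partners and inhibitors of D-type cyclins showed 1 call of 10 in 4E-T over IgG, 5 in 4E-T over input and 6 in IgG over input. Of all genes, 10.5%, 19.3% and 16.6% were called in these comparisons. Ccnd3, the third D-type cyclin, passed in none. It lay between 6.20 and 6.93 with 4E-T, 6.44 and 6.76 with IgG and 6.35 and 6.96 in input. Its difference of 4E-T and IgG was 0.25 ± 0.14 (limma adjusted p = 0.325).

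The 2 kinases differed from input in opposite directions, and in both precipitates. Cdk6 read 7.47, 7.47, 7.55 and 7.61 on the 4 inputs. It read 7.76, 8.61 and 8.93 on 4ET-IP 1, 2 and 3, and 8.83, 8.51 and 8.63 on IgG-IP 2, 3 and 4. Every precipitate thus lay above every input, as did 6.45% of all genes with 4E-T and 14.1% with IgG. Cdk6 was 0.95 ± 0.18 higher with 4E-T and 1.00 ± 0.19 higher with IgG than in input (limma adjusted p = 0.00341 and 0.00351). Both calls were kept when any 1 array was left out. Cdk4 read 10.51, 11.09, 10.98 and 10.92 on the inputs. It read 10.18, 10.32 and 10.40 with 4E-T, and 10.47, 10.47 and 10.30 with IgG, all below every input, as were 8.44% of all genes with 4E-T and 8.23% with IgG. Its differences from input were -0.55 ± 0.13 in each precipitate (limma adjusted p = 0.00893 and 0.0128). They were not called without 4ET-IP 2 (0.0638) and without input 2 (0.0521), respectively, over ranges of 0.00799 to 0.0638 and 0.0118 to 0.0521 without 1 array. Between 4E-T and IgG neither kinase differed beyond its error, at -0.06 ± 0.21 for Cdk6 and 0.00 ± 0.14 for Cdk4. Both precipitates were set against the same inputs. Of these 4 calls, with group alone only that of Cdk6 in IgG over input passed (0.0252).

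Among the inhibitors of cyclin-dependent kinases, Cdkn1b was the gene called in 4E-T over IgG. It was 0.61 ± 0.15 higher with 4E-T than with IgG (limma adjusted p = 0.0255) and 0.68 ± 0.14 higher than in input (0.00411). The first call was lost without any 1 of 6 arrays (input 1, 4ET-IP 1, 2 or 3, IgG-IP 3 or 4, up to 0.130). The second was kept without any 1 array. Leaving out input 1 or 4ET-IP 1 gives the same fit as the 8 arrays (0.0558). Cdkn1a was lower than input with 4E-T (-0.74 ± 0.20, limma adjusted p = 0.0245) and with IgG (-0.93 ± 0.21, 0.0103). Cdkn1c was lower in both as well (-0.60 ± 0.15, limma adjusted p = 0.0149, and -0.67 ± 0.16, 0.0117). The calls of Cdkn1a and Cdkn1c in 4E-T over input were lost without 4ET-IP 2 or 4ET-IP 3, and for Cdkn1a also without input 2 (up to 0.136 and 0.0755). Cdkn2d and Cdkn2c, inhibitors of Cdk4 and Cdk6, were lower with IgG than in input (-0.72 ± 0.17 and -0.52 ± 0.15, limma adjusted p = 0.0117 and 0.0385). The call of Cdkn2c was kept without 1 array in 2 of the 10 cases only (up to 0.134). Cdkn2a and Cdkn2b were called in no comparison, with 4E-T over IgG at 0.06 ± 0.21 and -0.02 ± 0.18.

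Downstream of the kinases, the 13 retinoblastoma and E2F family genes had a list median of 0.24 in 4E-T over IgG. In limma 0 of them were lower (2.92% of all genes), with 2 lower at an unadjusted p under 0.05. Higher in limma were 4 of the 13 (7.57% of all genes). They were E2f8 (1.26 ± 0.21, limma adjusted p = 0.00393) and E2f7 (1.02 ± 0.23, 0.0171), which encode atypical repressor E2Fs, and E2f3 (0.87 ± 0.15, 0.00393) and E2f2 (0.85 ± 0.21, 0.0259), which encode activator E2Fs. E2f3 read 9.45, 9.89 and 9.96 with 4E-T, 9.28, 8.91 and 8.93 with IgG and between 8.12 and 8.58 in input. Its 4E-T arrays thus lay above all others, as did 7.02% of all genes against IgG and 6.45% against input. Its IgG arrays lay above all inputs, as did 14.1% of all genes. It was also higher than input with 4E-T (1.38 ± 0.13, limma adjusted p = 7.21e-05) and with IgG (0.51 ± 0.14, 0.0240), the latter lost without any 1 of 4 arrays (input 2, 3 or 4, or IgG-IP 2; up to 0.0764). The calls of E2f8 and E2f3 against IgG were kept without any 1 array. Those of E2f7 and E2f2 were lost without 4ET-IP 2 or 3, and of E2f2 also without IgG-IP 3 (up to 0.121 and 0.152). Rb1, the retinoblastoma gene, lay at the bottom of the list at -0.37 ± 0.15 and was not called in 4E-T over IgG. In 4E-T over input 6 of the 13 were higher and 0 lower in limma (0 lower also at an unadjusted p under 0.05). Of all genes, 10.4% were called higher and 8.86% lower there. In IgG over input 2 of the 13 were higher (6.14% of all genes), Rb1 (0.49 ± 0.14, limma adjusted p = 0.0301) and E2f3. The call of Rb1 was kept without 1 array in 5 of 10 cases (lost without input 2 or 3, 4ET-IP 2, or IgG-IP 2 or 4; up to 0.0974).

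**Figure D4:**
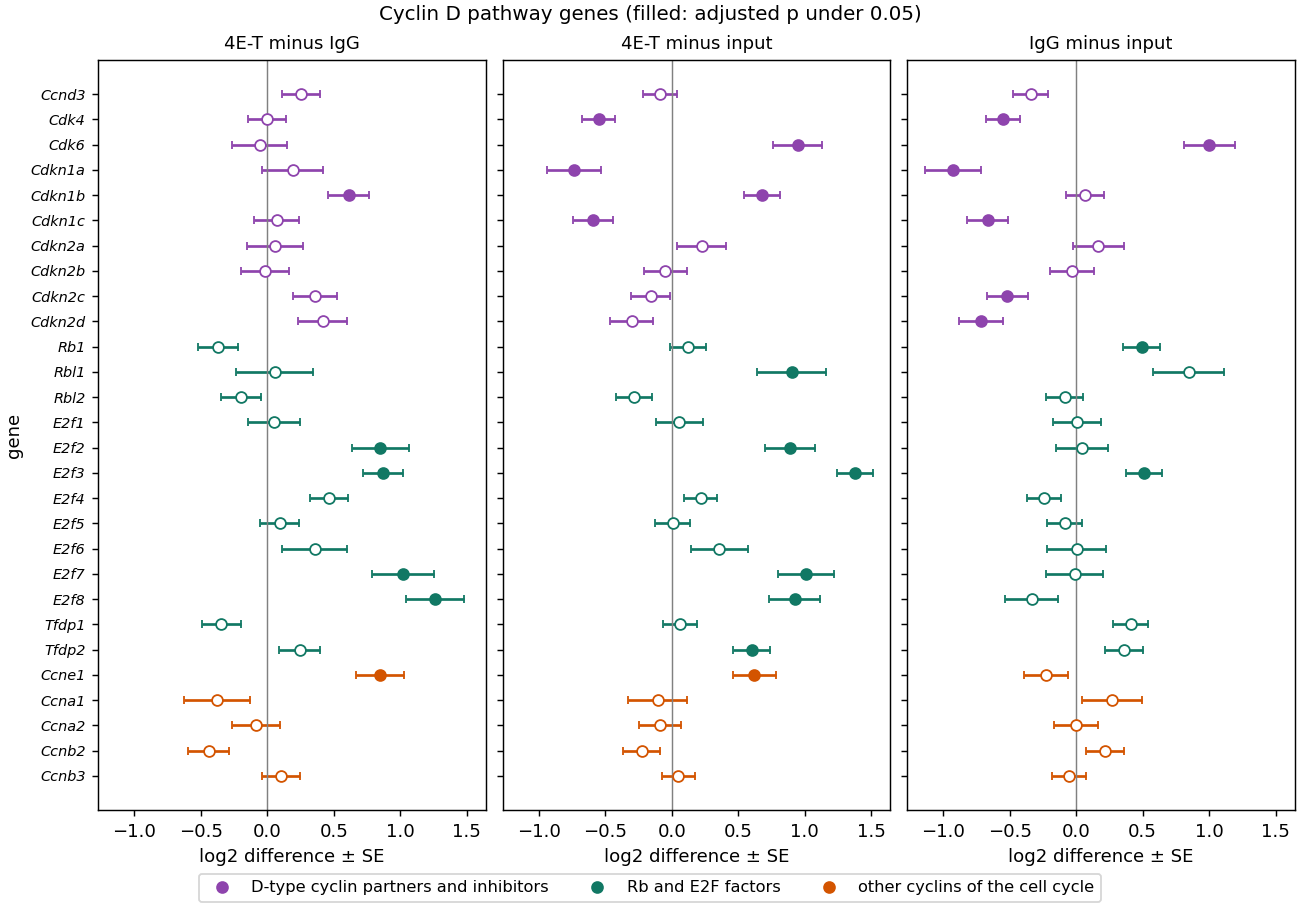
Log2 differences ± SE for the partners and inhibitors of D-type cyclins, the retinoblastoma and E2F genes and the other cell cycle cyclins, in 4E-T minus IgG, 4E-T minus input and IgG minus input. Filled points had an adjusted p under 0.05 in limma with the pair term. Cdk6 (0.95 and 1.00) and Cdk4 (-0.55 in each) lie on opposite sides of 0 against input, and E2f8 (1.26) lies farthest right in 4E-T minus IgG.

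Of the other cell cycle cyclins, 5 of 8 were measured. Ccne1, whose product drives entry into DNA synthesis, was higher with 4E-T than with IgG (0.85 ± 0.18, limma adjusted p = 0.0121) and than input (0.62 ± 0.16, 0.0169). Its values were 7.73, 7.39 and 7.35 with 4E-T, 6.65, 6.63 and 6.30 with IgG and 7.05, 6.98, 6.91 and 6.42 in input. Its 4E-T arrays thus lay above all others, as did 7.02% of all genes against IgG and 6.45% against input. The call against IgG was lost without 4ET-IP 2 or 3 (up to 0.0653), and that against input without input 1 or 4ET-IP 1, 2 or 3 (up to 0.0719). The mitotic cyclin gene Ccnb2 was the lowest of the list in 4E-T over IgG, at -0.44 ± 0.16 (limma adjusted p = 0.102). In IgG over input 0 of the 5 passed in limma (16.6% of all genes did), and 0 had an unadjusted p under 0.05.

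Cyclins of transcription and other roles gave 4 calls among 15 in 4E-T over IgG, where 10.5% of all genes were called. Ccnjl (0.97 ± 0.20, limma adjusted p = 0.00998), Ccnk (0.67 ± 0.15, 0.0143) and Ccnj (0.50 ± 0.14, 0.0415) were higher. Ccnt2, a cyclin of the elongation factor P-TEFb, was lower (-0.68 ± 0.16, 0.0164) and, like Ccnd2, higher with IgG than in input (0.80 ± 0.14, 0.00243) with 4E-T near input (0.11 ± 0.14). The calls against IgG were lost without 4ET-IP 2 for Ccnjl, without 4ET-IP 2 or 3 for Ccnk and Ccnt2, and without any 1 of 9 arrays for Ccnj, which kept it only without input 4 (up to 0.0541, 0.0911, 0.113 and 0.165). For Ccnj, leaving out input 1 or 4ET-IP 1 gives the same fit as the 8 arrays outside the lower pair.

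Of the genes for cyclin D turnover 12 of 15 were measured, and 2 were higher and 1 lower with 4E-T than with IgG. Of all genes, 7.57% were called higher and 2.92% lower. Fbxw8, which encodes a ubiquitin ligase subunit reported to recognise cyclin D1, was 1.56 ± 0.20 higher (limma adjusted p = 8.35e-04). It read 7.15, 8.41 and 8.48 with 4E-T, 6.80, 6.76 and 6.55 with IgG and between 6.39 and 6.74 in input. All 4E-T arrays lay above the others, 4ET-IP 1 by the smallest margin. The same held for 7.02% of all genes against IgG and for 6.45% against input. Ambra1, a substrate receptor for D-type cyclins, was higher by 0.69 ± 0.18 (0.0328), and Ddb1, an adaptor of the same ligase, was lower (-0.72 ± 0.16, limma adjusted p = 0.0158). The call of Fbxw8 was kept without any 1 array. That of Ambra1 was lost without any 1 of 5 arrays (input 2, 4ET-IP 2 or 3, IgG-IP 3 or 4; up to 0.174), and that of Ddb1 without 4ET-IP 3 (0.0803). The end points of the list were Fbxw8 and Ddb1.

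Transcription factors known to act upstream of cyclin D genes had 5 calls among 18 measured in 4E-T over IgG, all higher. The list median was 0.48, and 7.57% of all genes were called higher. Sox2 (1.06 ± 0.17, limma adjusted p = 0.00298) and Jun (0.95 ± 0.18, 0.00749) led, and their calls were kept without any 1 array. Jun read 9.14, 8.47 and 8.66 with 4E-T, between 7.51 and 7.93 with IgG and between 7.07 and 7.37 in input. These 3 ranges did not overlap. The shares of all genes higher without overlap were 7.02% in 4E-T over IgG, 6.45% in 4E-T over input and 14.1% in IgG over input. Myc (0.82 ± 0.19, limma adjusted p = 0.0161) lost its call without 4ET-IP 2 or 3 (up to 0.0839). Gli2, a factor of Hedgehog signalling, lay at 0.57 ± 0.15 (0.0337) and kept its call without 1 array in 2 of 10 cases (up to 0.186), and not among the 8 arrays. Ctnnb1, the gene of beta-catenin, was lowest at -0.13 ± 0.13 and was not called. Against input, 10 of the 18 were higher with 4E-T and 2 with IgG, where 10.4% and 6.14% of all genes were.

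The genes with the pattern most like Ccnd1, by Pearson correlation over the 8 arrays outside the lower pair, were Shisa2 (r = 0.992), Gprc5b (0.979), Nuak2 (0.978), Pip5k1b (0.972) and Lrrn1 (0.969), among 3277 genes whose SD over these arrays was at least 50% of that of Ccnd1. For Ccnd2 they were Hnrnpa0 (r = 0.983), Ivns1abp (0.981), Tfdp1 (0.981), Kntc1 (0.979) and Rap1b (0.978), among 14138 genes by the same limit. The arrays share their groups and the scaling, and many genes follow the same 3 group means, so these values only order the genes. On all 10 arrays, each centred on its median, Pip5k1b was first for Ccnd1 (0.972) and Ivns1abp first for Ccnd2 (0.973), while Hnrnpa0 fell to place 656. Ccnd1 and Ccnd2 correlated at -0.19 over the 8 arrays. The 5 genes like Ccnd1 were 0.94 to 2.16 higher with 4E-T than with IgG, and those like Ccnd2 had differences from -0.79 to -0.31. These genes were picked for following the cyclins over the same arrays, so the shared direction comes from the choice and is not a separate result. Tfdp1, an E2F dimerization partner, is also a member of the list above, where it lay at -0.34 ± 0.15 and was not called.

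Some marker lists moved with the groups, and others did not. Of all genes, 10.5% were called in 4E-T over IgG, 19.3% in 4E-T over input and 16.6% in IgG over input. Of 10 radial precursor genes 6 were higher and 0 lower with 4E-T than with IgG in limma (0 lower at an unadjusted p under 0.05). Their mean level above the array median was 4.22 to 4.67 with 4E-T, 3.54 to 3.80 with IgG and 3.54 to 4.03 in input. Against input, 5 of these 10 were higher and 1 lower with 4E-T, and 1 was higher and 1 lower with IgG. The lower gene was Vim in both (-0.76 ± 0.14 and -0.91 ± 0.15, limma adjusted p = 0.00288 and 0.00138). Of 10 endothelial genes 2 were higher with 4E-T than with IgG and 4 were lower with IgG than in input. Their mean level relative to the array median was 0.06 to 0.15 with 4E-T, -0.34 to -0.14 with IgG and 0.09 to 0.22 in input. For 10 neuronal genes the mean levels overlapped, at 4.22 to 4.59 with 4E-T, 4.23 to 4.46 with IgG and 4.24 to 4.67 in input, while single members went both ways. Of these 10, 2 were higher and 3 lower with IgG than in input, and 3 were higher and 1 lower with 4E-T than in input. The gene called against IgG was Dcx, a microtubule protein gene of young neurons, which was lower with 4E-T (-1.11 ± 0.21, limma adjusted p = 0.00605). Of 10 microglia and macrophage genes 0 were called by limma in 4E-T over IgG (2 at an unadjusted p under 0.05), and of 10 meningeal and mesenchymal genes 1. Of the 10 erythroid genes listed 4 were measured and 1 was higher, and of 8 ventral forebrain genes measured 2 were higher. The part of these cell types in the values of the cyclins was not tested.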

How the data were processed

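The deposited values are log2 intensities, which the authors made with Affymetrix Expression Console and its RMA method, per the submitters' processing notes (background correction, quantile normalization, a summary per probe set). The sources used here give neither software versions nor a genome build. RNA was precipitated with the Magna RIP kit, amplified with a NuGEN Pico kit and hybridised to Affymetrix Mouse Gene 2.0 ST arrays, 1 sample per array, per the labels' protocols. Replicates may share litters, so p-values measure only the spread between these samples.

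Of 41345 probe sets 23521 had 1 gene symbol, 1814 had several and 16010 had none. The brightest probe set was kept for the 1082 genes with several, which left 22180 genes, with 23328 probe sets matched to the GRCm38.p6 gene table. The table carries no detection calls and no dim gene was removed. Precision is limited by the number of arrays.

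Arrays were grouped by scale from the mean distance of their sorted values (over 0.3 apart). Limma 3.58.1 in R 4.3.3 (lmFit, eBayes) was fitted with group and this pair as terms. The term assumes, gene by gene, the same shift on both arrays of the pair. The fit was tested on simulated data: of 100 genes changed by 1 on the log2 scale in 4E-T over IgG, among 22180, 64.0% were recovered, and of 100 changed by 2, 99.0%. The simulated data had independent normal noise, no change in the other genes and the same shift on both arrays of the pair. They therefore do not test the assumption of the pair term, and recovery in the real data may differ. Figures used matplotlib 3.10.9 in Python 3.11.15.

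The members, the lists, the pair term and the alternatives were chosen with earlier results of these data known, among them that more genes pass with the pair term than without it. Named genes were all partners and inhibitors, in other lists the genes called in 4E-T over IgG (beyond 4, the 2 highest and 2 lowest of these) with the ends of the list, and the 5 most alike genes per cyclin. The last needed at least 50% of the cyclin's SD and skipped chemoreceptors, snoRNAs, microRNAs, clone names and predicted genes. Alternatives were group alone, the 8 arrays, median centring, joint quantile normalization, mean probe sets, a dim filter, a trended robust eBayes, the replicate number as a block, and leaving out each array.

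It was checked whether equal replicate numbers mark pairs, from deviations from the group means across genes. Arrays of 4E-T and input with equal numbers correlated at 0.62, 0.24 and 0.28, which met the criterion of more than 0.1 in each pair, but at 0.04 and 0.01 outside the lower pair. Those of IgG and input correlated at -0.02, 0.08 and 0.32 over all arrays and at 0.14, 0.09 and 0.25 outside the lower pair, which did not meet it in each pair. In each case 2 of 3 precipitate arrays correlated best with the input of their own number. Pairing was thus open for these arrays, and blocked values are given where they bear on a statement. Number 1 is carried by the lower pair alone, so the block contains the pair term.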

Additional observations from a re-analysis of the deposited data

Results flagged for a closer look

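In the input group of 4 arrays, the highest or lowest array was compared with the nearest other, for 76 items (the cyclins, their within-array difference and the pathway genes). The gap, as a share of the group's range, exceeded Dixon's 95% critical value in 10 of them. Chance gives about 1 in 20 for independent items on arrays of equal scale. Input 1 lies on the lower scale and the items share arrays, so the count cannot be set against that rate. Input 4 stood apart in the within-array difference of Ccnd1 and Ccnd2, at -2.68 against -1.91 to -1.80 on the other inputs. It was also low for Skp2, a ubiquitin ligase gene, at 8.77 against 9.19 to 9.24. The other 8 were low on input 1, which belongs to the pair of arrays on the lower scale. They were Ccnd3 (6.35), Cdkn1b (8.27), E2f4 (7.63), Tfdp2 (7.79), Ccni (10.28), Ccny (8.25), Fos (3.03) and Foxo1 (5.25). Without input 1, Ccnd3, Cdkn1b and Foxo1 lay at 6.88 to 6.96, 9.34 to 9.42 and 6.11 to 6.21 on the other inputs.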

How the results depend on the processing

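Across the alternatives with all arrays or the 8 arrays, Ccnd1 stayed between 1.18 and 1.64 in 4E-T over IgG, 0.72 and 1.18 in 4E-T over input, and -0.61 and -0.44 in IgG over input. Ccnd2 stayed between -0.69 and -0.48, -0.00 and 0.31, and 0.57 and 0.80. The 0.31 came from quantile normalization of all arrays together, with a median of all genes of 0.09. Without 1 array, Ccnd1 ranged from 1.07 to 1.79, 0.75 to 1.18 and -0.84 to -0.06, and Ccnd2 from -0.72 to -0.50, 0.01 to 0.12 and 0.58 to 0.80. With group alone 299, 1361 and 1206 genes were called instead of 2326, 4274 and 3688, and after median centring 1510 and 2662 in the first 2 comparisons. The median of all genes with group alone was -0.19, -0.02 and 0.20. Without 1 array the counts ranged from 930 to 2268, 2703 to 4679 and 2612 to 3471, lowest without 4ET-IP 2, 4ET-IP 2 and input 3; without 4ET-IP 3 the first 2 were 935 and 2707. Leaving out any 1 of the other arrays gave 1833 to 2268 calls in 4E-T over IgG. The causes of these changes were not tested. With the replicate block 2454, 4510 and 4120 genes were called, and Ccnd1 was at 1.18 ± 0.14 and Ccnd2 at -0.68 ± 0.14 in 4E-T over IgG, with Ccnd1 at 0.72 ± 0.13 in 4E-T over input. The block kept 16 of the 18 (not Ccnj and Gli2), 31 of the 31 and 14 of the 14 pathway calls. No pathway call changed sign under any alternative.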

Other observations

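The arrays numbered 4 carried the lowest Ccnd1 values of their groups. Ccnd1 was 1.11 lower on input 4 than the mean of inputs 2 and 3 (a difference of -1.11), and the difference of IgG-IP 4 from IgG-IP 2 and 3 was -1.35. For Ccnd2 these differences were -0.29 and -0.38, and the medians of all genes were 0.00 in each case. On input 4, 0.261% of genes had a lower difference than Ccnd1, and on IgG-IP 4 0.352% did. In both arrays at once 14 other genes had differences at or below those of Ccnd1, and 11 of them were neither predicted genes nor small noncoding RNAs. These 11, listed after their values were seen, were Ahcy, Cbln2, Crabp2, Cwc22, Ebf2, Hbb-bh1, Hmga2, Lum, Nr1h5, Pbx3 and Rasgrp1. Among these 11, Hbb-bh1 was lowest on input 4 (-2.34, and -2.91 on IgG-IP 4). Nr1h5 was lowest on IgG-IP 4 (-3.38, and -1.66 on input 4). The medians of the 10 neuronal genes were 0.34 and 0.33, and those of the 10 radial precursor genes -0.16 and -0.01. Those of the other cell cycle cyclins were -0.36 and -0.29, and of the retinoblastoma and E2F genes -0.21 and -0.26. For the partners and inhibitors they were 0.03 and -0.12, and for the upstream transcription factors -0.17 and -0.07. For the turnover genes they were -0.002 and -0.24, and for the cyclins of transcription and other roles -0.04 and -0.12. E2f7, E2f8 and Ccne1 also had their lowest IgG value on IgG-IP 4 (6.72, 7.15 and 6.30), while E2f2 and E2f3 did not. There was no 4E-T array numbered 4, so low values on IgG-IP 4 raise the difference of 4E-T and IgG. Single arrays give no test, and what sets the arrays numbered 4 apart was not tested.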
